A study of Homo sapiens with 4 samples.

Results

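The miR-17 family was examined on 4 arrays of HCT116 cells, a colon cancer line that carries wild-type p53. Migratory (MG) cells were those that crossed a transwell membrane in repeated rounds of selection, and non-migratory (non-MG) cells were those that stayed on the upper side. No treatment or transfection is named for either group, and the labels call MG cells highly and non-MG cells poorly migratory. There were 2 arrays of MG cells and 2 arrays of non-MG cells, each hybridised with RNA labelled with a single dye. Both groups are selected populations of 1 line, and nothing in the sources says that the arrays of a group came from separate cultures, so the errors given here measure the spread between arrays and may be technical.

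The family was taken as 6 of the 939 miRNAs on the array, namely hsa-miR-17-5p, hsa-miR-18a-5p, hsa-miR-20a-5p, hsa-miR-20b-5p, hsa-miR-93-5p and hsa-miR-106b-5p. They were chosen by their common ancestry in 3 clusters, and with it known from earlier results of these arrays that miRNAs of these clusters had lower signal in MG cells. The MG and non-MG values of the 6 members are therefore a description. The calls that the fit over all miRNAs gave for them are printed beside its calls among all of them, and are not read as a test of their lower signal.

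A miRNA finds its target mRNAs mainly through its seed, bases 2 to 8 counted from 1 at the 5′ end. MiRNAs of 1 cluster are cut from 1 primary transcript, and those with 1 seed can bind the same target sites. The miR-17-92 cluster is a well-known oncogenic polycistron, its transcription is activated by MYC and E2F factors, and the family's known targets include the cell cycle inhibitor CDKN1A. In colon cancer cells the cluster is often highly expressed.

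The mature sequences are shown, 5′ to 3′ with the seed in capitals, because the label of the family rests on them. They are the RefSeq sequences of the 6 members and of 2 close relatives, miR-106a-5p and miR-18b-5p, from the third cluster.
hsa-miR-17-5p: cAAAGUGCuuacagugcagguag
hsa-miR-20a-5p: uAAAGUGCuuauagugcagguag
hsa-miR-20b-5p: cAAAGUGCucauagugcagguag
hsa-miR-93-5p: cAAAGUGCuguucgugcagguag
hsa-miR-106b-5p: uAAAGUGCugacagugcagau
hsa-miR-106a-5p: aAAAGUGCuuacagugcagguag
hsa-miR-18a-5p: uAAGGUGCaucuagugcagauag
hsa-miR-18b-5p: uAAGGUGCaucuagugcaguuag

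The seed AAAGUGC was held by 5 of the 6 members. In hsa-miR-18a-5p the seed was AAGGUGC, which differs from that of hsa-miR-17-5p by A4G, so it shares the clusters but not the seed of the others. Outside the seed, the members differed at few positions. From hsa-miR-17-5p to hsa-miR-20a-5p there were 2 substitutions, C1U and C12U, and from hsa-miR-17-5p to hsa-miR-20b-5p also 2, U10C and C12U. The most distant pair of members with the AAAGUGC seed was hsa-miR-93-5p and hsa-miR-106b-5p, at 5 of 21 positions, although both come from 1 cluster. The nearest relative of hsa-miR-17-5p was miR-106a-5p, with the single substitution C1A, and miR-106a-5p was not analysed here. Whether near-identical miRNAs bound to each other's probes was not tested, since the probe sequences were not among the sources used.

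Of the 851 human miRNAs on the array, 737 had a mature sequence in the RefSeq table, and 7 of these had the seed AAAGUGC. The 2 that are not members, hsa-miR-519d-3p and hsa-miR-526b-3p, were detected on 0 of the 4 arrays. Among the matched miRNAs, the signal with this seed thus came from the probes of the 5 members. Whether miR-106a-5p, which is not listed on the array, added to the signal of those probes was not tested. The seed AAGGUGC was held by 2 miRNAs on the array, hsa-miR-18a-5p and hsa-miR-18b-5p.

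In GRCh38.p14, the mature miRNAs of the miR-17-92 cluster lie on the plus strand at chr13:91350618-91351382, a span of 765 bp within MIR17HG, a long non-coding RNA gene. Those of the miR-106b-25 cluster lie on the minus strand at chr7:100093571-100094063, a span of 493 bp within MCM7, which encodes a subunit of the replicative DNA helicase. Those of the miR-106a-363 cluster that the table lists lie on the minus strand at chrX:134169382-134170266, a span of 885 bp within the long non-coding RNA gene MIR106AHG. Exons and introns of these genes were not read here. The members fell unevenly over the clusters, with hsa-miR-17-5p, hsa-miR-18a-5p and hsa-miR-20a-5p from miR-17-92, hsa-miR-106b-5p and hsa-miR-93-5p from miR-106b-25, and hsa-miR-20b-5p alone from miR-106a-363.

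The signal of a miRNA is the sum of its probes' background-subtracted intensities, counting probes above 3 times their error, and it was scaled to bring the arrays to a common 75th percentile over those 116 miRNAs that every array detected. Detected miRNAs numbered 118 to 135 per array, no spot was saturated, and all 4 arrays lay on 1 slide. Row 1 of the slide held both non-MG arrays and row 2 both MG arrays, which means that group and row cannot be told apart. All 5 epithelial markers of the miR-200 family were detected on all 4 arrays. Their summed scaled signal was 669 to 730 in non-MG and 631 to 651 in MG cells. The brightest, miR-200c-3p (386 and 340 in non-MG, 339 and 358 in MG cells) and miR-200b-3p, overlapped between the groups. miR-141-3p, miR-200a-3p and miR-429 were lower on both MG arrays. The intestinal markers miR-192-5p, miR-194-5p and miR-215-5p were detected on no array. Of 14 markers of other cell types, 11 were at 0 on every array and the highest, miR-126-3p of endothelium, reached 10.3. The part of the lower miR-200 sum in the results below was not tested.

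One library stood apart. On non-MG replicate 2, spots in columns 1 to 36 of the array were dim, at a median log2 of -0.53 against the median spot of the same probe, while spots in columns 37 to 82 were at 0.05. On the other arrays the left-hand columns were between -0.09 and -0.01. The changes of the members in the fit are therefore also given without this array or from the right-hand columns.

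**Figure D1:**
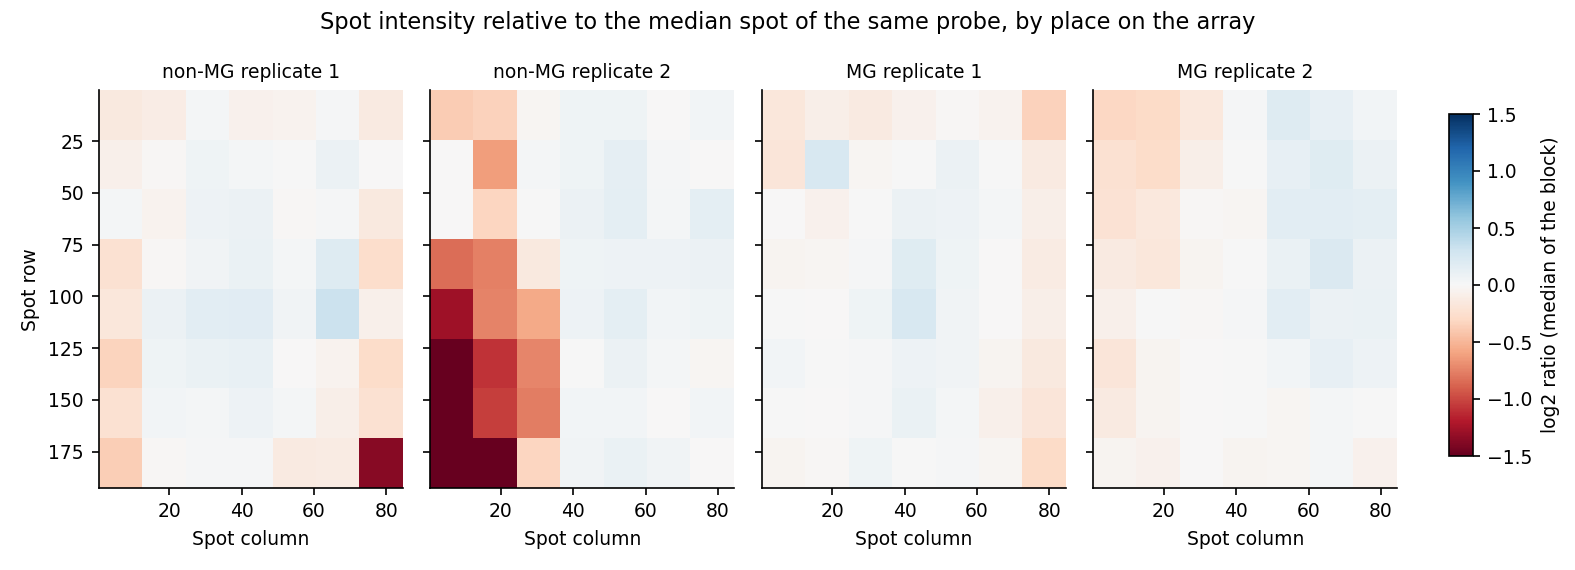
Median log2 ratio of a spot's intensity to the median spot of its probe, over blocks of 12 columns and 24 rows of spots on each of the 4 arrays, for probes with bright signal. The left-hand columns of non-MG replicate 2 are dim, down to 0.278 of the probe's median, and 1 corner block of non-MG replicate 1 is at 0.388.

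All 6 members had lower scaled signal on both MG arrays than on both non-MG arrays. Among the 57 human miRNAs that reached 50 before scaling on any array, 40.4% lay lower on both MG arrays, so this order was common in these data. With median scaling or with no normalization 4 of the 5 tested members kept this order, and hsa-miR-106b-5p overlapped, at unscaled signals of 80.1 and 69.3 in non-MG and 71.0 and 50.3 in MG cells. From total RNA of a population, fewer cells with a miRNA and less miRNA per cell cannot be told apart. The log2 change of the 5 members past that minimum ran from -0.79 to -0.32 with a median of -0.42, a geometric mean in MG of 0.748 times that in non-MG. The median over all 57 miRNAs was -0.08.

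**Figure D2:**
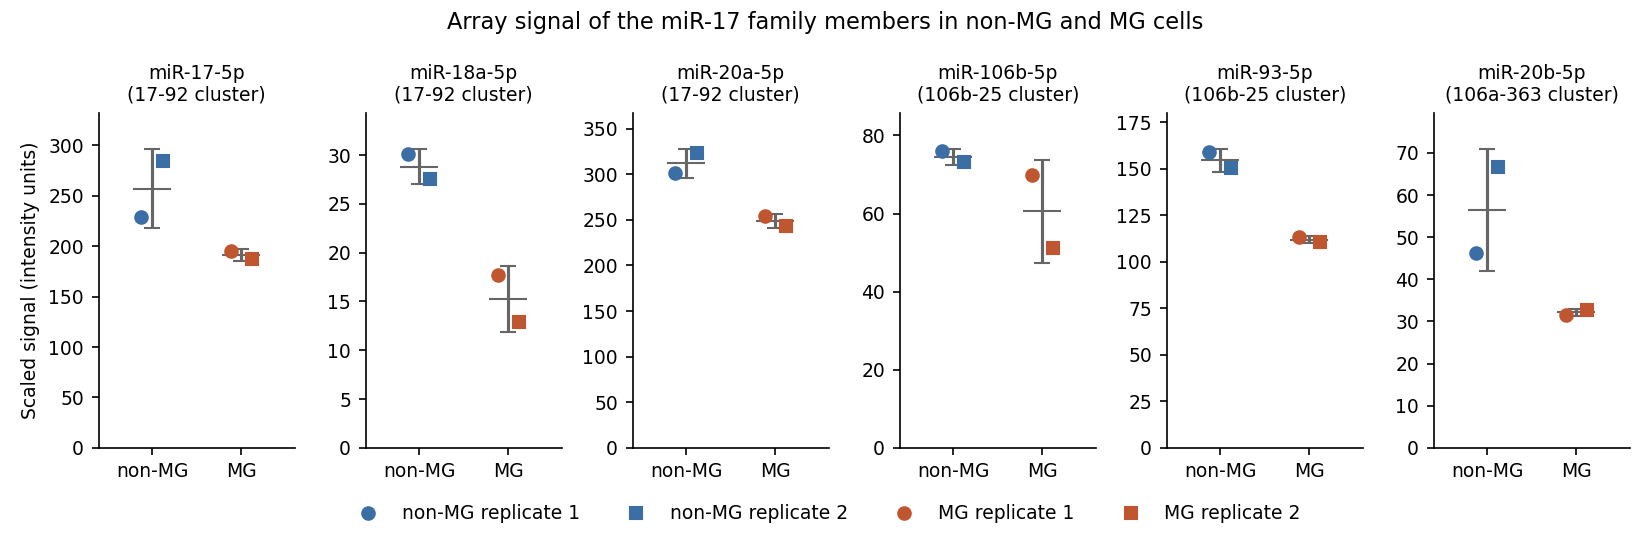
Scaled signal, in intensity units, of each member on the 2 non-MG and the 2 MG arrays, with the group mean and SD (n = 2) as a bar, on axes that start at 0. In each of the 6 panels both MG arrays lie below both non-MG arrays, by the least for miR-106b-5p.

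Within miR-17-92, hsa-miR-17-5p, which gives the family its name, had scaled signals of 229 and 285 in non-MG cells and of 196 and 187 in MG cells. The MG arrays lay close together and the non-MG arrays far apart, with the higher value on non-MG replicate 2. The group means were 257 ± 39.5 (SD, n = 2) and 191 ± 6.09 (SD, n = 2), a log2 change of -0.42 with a standard error of 0.15. That standard error was the same for all 57 miRNAs, because limma here estimated 1 common spread. Without non-MG replicate 2 the log2 change was -0.26. By geometric means, which the percentages given for the members compare, the signal of hsa-miR-17-5p was 25.2% lower in MG cells.

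For hsa-miR-20a-5p, the third of the cluster's members, the scaled signals were 301 and 323 in non-MG cells and 254 and 243 in MG cells. The groups did not overlap, and the highest MG value was 0.844 times the lowest non-MG value. The means were 312 ± 15.8 (SD, n = 2) and 249 ± 7.56 (SD, n = 2). The log2 change was -0.33.

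The miR-17-92 member with the other seed, hsa-miR-18a-5p, had scaled signals of 30.1 and 27.5 in non-MG cells and of 17.7 and 12.9 in MG cells. All 4 values were below the minimum of 50, so it did not enter the fit. The log2 change of its sum was -0.93, and this value is enlarged by the way probes are counted. Its weaker probe exceeded 3 times its error on both non-MG arrays and on neither MG array, where none of its spots (0 of 8) stood well above background. On the other probe alone, counted on all 4 arrays, the signals were 22.7 and 19.1 in non-MG and 17.7 and 12.9 in MG cells. The log2 change on that probe was -0.46, and the groups still did not overlap.

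In the miR-106b-25 cluster, hsa-miR-93-5p had scaled signals of 159 and 150 in non-MG cells and of 113 and 110 in MG cells. Within each group the arrays differed little, and the groups were well apart. The means were 154 ± 6.10 (SD, n = 2) and 112 ± 1.85 (SD, n = 2), a signal 27.6% lower in MG cells by geometric means with a log2 change of -0.47.

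The first miRNA of that cluster, hsa-miR-106b-5p, had scaled signals of 76.0 and 73.1 in non-MG cells and of 69.9 and 51.2 in MG cells. MG replicate 1 was close to the non-MG arrays and MG replicate 2 was low, so the highest MG value was 0.956 times the lowest non-MG value. The means were 74.5 ± 2.03 (SD, n = 2) and 60.5 ± 13.2 (SD, n = 2), and the log2 change of -0.32 was -0.09 without MG replicate 2 and -0.54 without MG replicate 1. The order of the groups for hsa-miR-106b-5p therefore rests on a gap smaller than the spread between the MG arrays.

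The only member from the X chromosome, hsa-miR-20b-5p, had scaled signals of 46.3 and 66.7 in non-MG cells and of 31.6 and 32.8 in MG cells. The MG arrays lay together, and both non-MG arrays lay above them but far from each other. The means were 56.5 ± 14.5 (SD, n = 2) and 32.2 ± 0.860 (SD, n = 2), and by geometric means the signal was 42.0% lower in MG cells. Its log2 change was -0.79, and it was -0.52 without non-MG replicate 2. Its unscaled signals were 48.8 and 63.2 in non-MG and 32.1 and 32.2 in MG cells, so it passed the minimum of 50 only on non-MG replicate 2 and entered the fit through the group where it was higher.

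limma with Benjamini-Hochberg adjustment over the 57 miRNAs called 3 of the 5 members lower in MG, which were hsa-miR-17-5p, hsa-miR-20b-5p and hsa-miR-93-5p. It called 14.0% of the 57 lower in MG and 24.6% in either direction. Because the members were selected on this contrast, and hsa-miR-20b-5p was admitted by its non-MG signal, nothing is read from their count. Without non-MG replicate 2 it called 0 of the 5 members, of which 2 had an unadjusted p under 0.05, and 3 of the 57 miRNAs. Without non-MG replicate 1 it called 1 member and 5 miRNAs, and without MG replicate 2 it called 1 member and 10 miRNAs. Without MG replicate 1 it called 3 members and 11 miRNAs. All 5 means stayed lower in MG when any single array was left out.

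The higher scaled non-MG value of hsa-miR-17-5p, hsa-miR-20a-5p and hsa-miR-20b-5p was on non-MG replicate 2, whose scaling factor of 1.06 was the highest of the 4 arrays. Before scaling, hsa-miR-20a-5p was higher on non-MG replicate 1, at 317 against 306. Of the 8 spots of the probe that carried the signal of hsa-miR-20b-5p, 1 lay in the dim columns, against 5 of the 8 for the brighter probe of hsa-miR-93-5p. From the spots of columns 37 to 82 alone, signals were sums of mean spot intensities. They are on another scale than the signals over all spots, so only proportions can be compared. hsa-miR-20b-5p there had scaled signals of 96.0 and 109 in non-MG cells and of 61.4 and 64.7 in MG cells, a log2 change of -0.70. For hsa-miR-17-5p these spots gave 747 and 753 in non-MG cells and 588 and 589 in MG cells, a log2 change of -0.35. For these 2 miRNAs the non-MG arrays were closer to each other there, in proportion, than over all spots, and the groups were still apart. The dim corner block of non-MG replicate 1 lies within columns 37 to 82. With these spots the log2 changes of the other tested members were -0.35 for hsa-miR-20a-5p, -0.66 for hsa-miR-93-5p and -0.37 for hsa-miR-106b-5p. For hsa-miR-106b-5p the non-MG arrays lay farther apart there in proportion, at 170 and 141, with 138 and 103 in MG cells. The distance between the non-MG arrays changed little for hsa-miR-93-5p, at 375 and 351, and for hsa-miR-20a-5p, at 638 and 601.

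Each member was measured by several probes, 13 in all with 96 spots per array. Of these, 11 exceeded 3 times their error on all 4 arrays, and their log2 changes ran from -0.83 to -0.13. For 9 of the 11, both MG arrays lay below both non-MG arrays, as they did for 35.5% of the 197 probes of human miRNAs that passed the same limit. The members having been selected on this contrast, nothing is read from that count. The 2 exceptions were the weaker probe of hsa-miR-20a-5p, with 107 and 91.3 in non-MG and 96.5 and 84.1 in MG cells, and the stronger probe of hsa-miR-106b-5p, with 54.5 and 46.1 in non-MG and 50.2 and 36.7 in MG cells. In both, the overlap came from non-MG replicate 2 lying below MG replicate 1. On that array 4 of the 8 spots of the weaker hsa-miR-20a-5p probe were in the dim columns, and their mean intensity was 0.355 of that of the other 4.

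The 3 probes of hsa-miR-17-5p changed by -0.33, -0.55 and -0.83 on the log2 scale, in order from the brightest to the dimmest. For hsa-miR-93-5p the brighter probe changed by -0.42 and the dimmer by -0.77. The sum per miRNA is thus set mainly by its brightest probe. For hsa-miR-20b-5p a single probe carried the signal, since its second probe was under 3 times its error on every array, where none of its spots (0 of 8) stood well above background. Its value of -0.79 therefore has no second probe beside it.

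**Figure D3:**
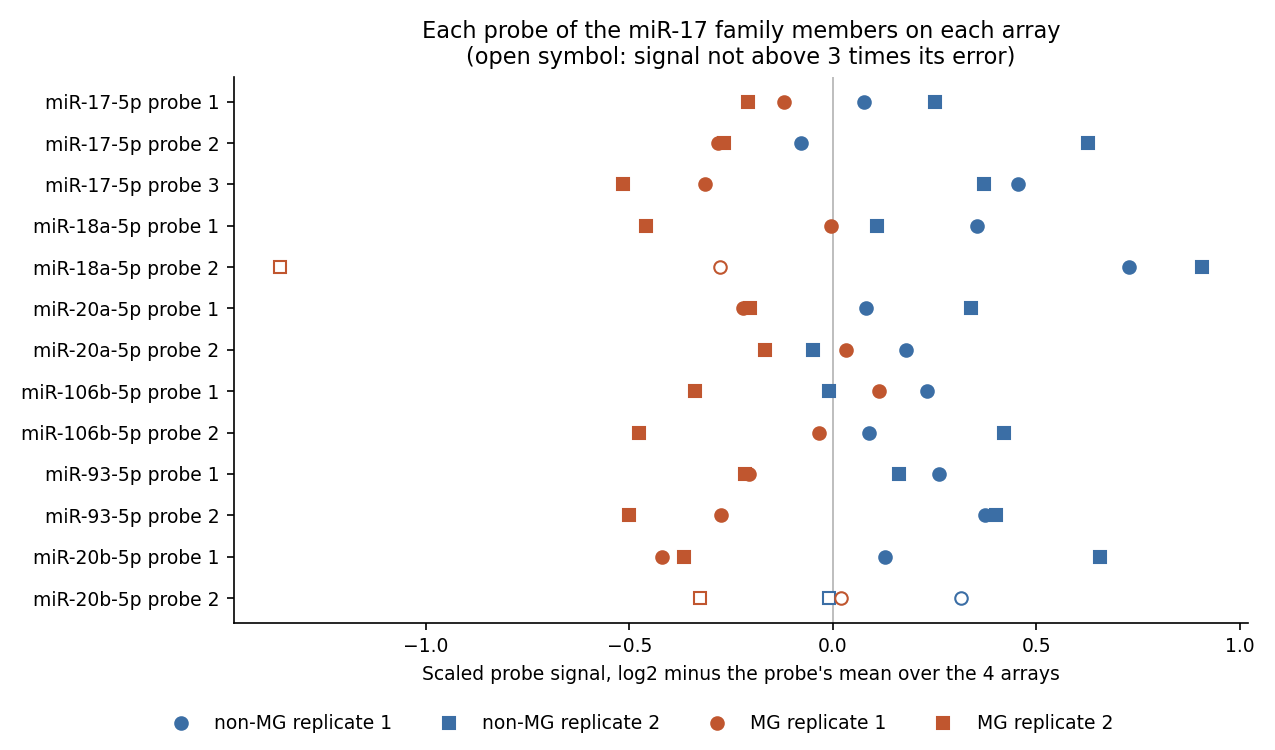
Log2 of the scaled signal of each of the 13 probes on each array minus the probe's mean over the 4 arrays, with open symbols where the signal was not above 3 times its error. MG arrays lie to the left of non-MG arrays for 9 of the 11 probes measured on all arrays, and the second probe of miR-20b-5p has open symbols only.

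The other miRNAs of the 3 clusters were compared with the members, since they come from the same transcripts. Of 22 partners listed, 21 were on the array and 15 were detected on no array. Opposite strands of the members' hairpins were nearly absent, with 1 of 6 detected, hsa-miR-17-3p at 6.30 and 8.88 in non-MG cells, 4.30 on MG replicate 1 and not detected on MG replicate 2. The 3 partners past the signal minimum were hsa-miR-92a-3p, hsa-miR-19b-3p and hsa-miR-25-3p, none of which has a member's seed.

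hsa-miR-92a-3p, whose mature sequence is made by both the miR-17-92 and the miR-106a-363 cluster, had scaled signals of 191 and 236 in non-MG cells and of 147 and 156 in MG cells. The groups did not overlap. The log2 change was -0.49, and limma's adjusted p was 0.013, over the same contrast on which the clusters had been chosen. Without non-MG replicate 2, limma called 0 of the 3 tested partners.

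hsa-miR-25-3p, the last miRNA of miR-106b-25, had scaled signals of 243 and 258 in non-MG cells and of 214 and 212 in MG cells. The arrays of each group lay close together. The log2 change of -0.24 was not called by limma (adjusted p = 0.24).

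hsa-miR-19b-3p, also encoded in both miR-17-92 and miR-106a-363, had scaled signals of 117 and 89.6 in non-MG cells and of 112 and 72.8 in MG cells. Here the groups overlapped, and the first replicate was the higher in both. The log2 change of -0.18 was not called by limma (adjusted p = 0.41). Below the minimum, hsa-miR-19a-3p overlapped in the same way, with 35.8 and 17.3 in non-MG and 32.0 and 18.2 in MG cells. In both, non-MG replicate 2, the array with dim columns, lay below MG replicate 1, as for the weaker probe of hsa-miR-20a-5p. The miR-19 pair thus overlapped between the groups and the probe sums of its neighbours hsa-miR-17-5p and hsa-miR-20a-5p did not. That difference between cluster neighbours was not tested.

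On the X chromosome, hsa-miR-18b-5p lies between miR-106a-5p and hsa-miR-20b-5p. It had scaled signals of 9.78 and 12.4 in non-MG cells and of 6.45 and 5.67 in MG cells, low values that did not overlap, with a log2 change of -0.86. The counting of probes that enlarged the change of hsa-miR-18a-5p applies to this sum too, and its probes were not examined singly. hsa-miR-18b-5p differs from hsa-miR-18a-5p by the single substitution A20U, counted from hsa-miR-18a-5p to hsa-miR-18b-5p. hsa-miR-363-3p and hsa-miR-363-5p, which come from the last hairpin of this cluster, were detected on no array. Of the miR-106a-363 cluster, only hsa-miR-20b-5p and hsa-miR-18b-5p were thus detected among the miRNAs on the array that no other cluster encodes.

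**Figure D4:**
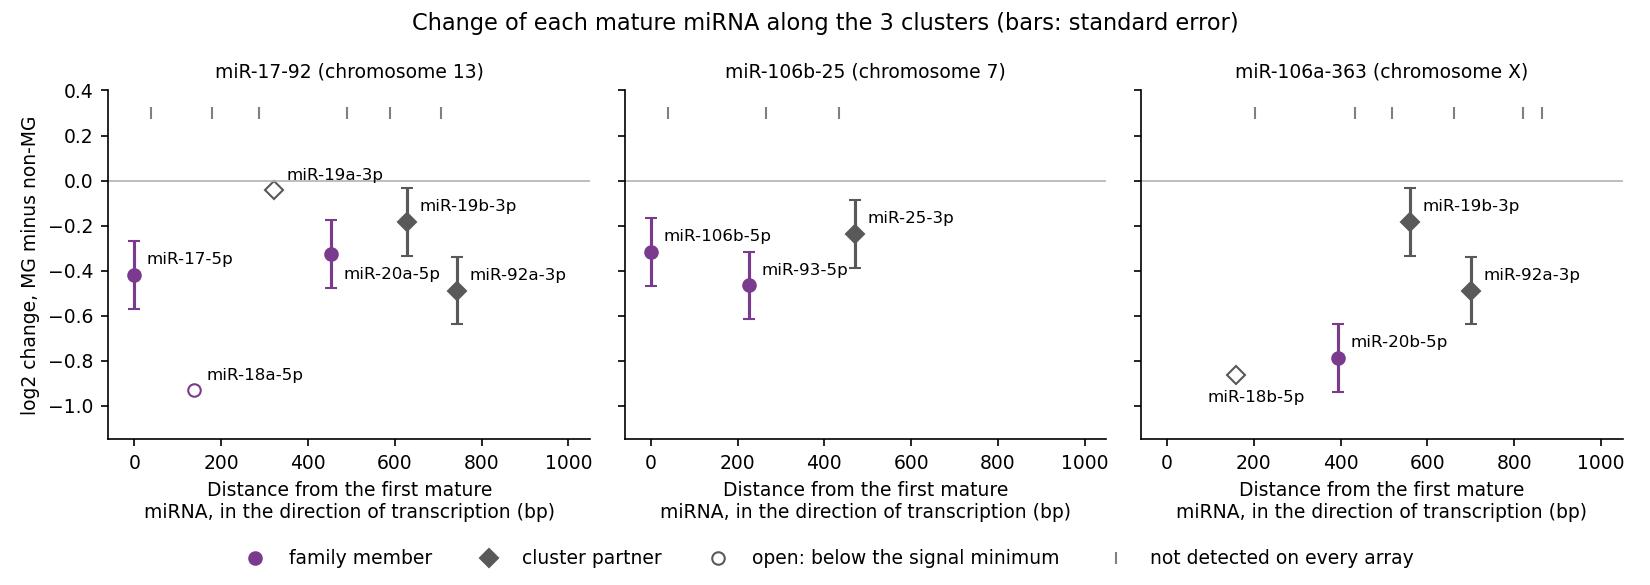
Log2 change from non-MG to MG of each mature miRNA against its distance in bp from the first mature miRNA of its cluster, with the standard error of 0.15 for miRNAs past the signal minimum and open symbols below it. Ticks at the top mark miRNAs on the array that were not detected on all 4 arrays. miR-19b-3p and miR-92a-3p are drawn in both clusters that encode them.

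By cluster, the tested members changed by -0.42 and -0.33 for miR-17-92, by -0.32 and -0.47 for miR-106b-25 and by -0.79 for miR-106a-363. The first 2 clusters overlapped in their members' changes. The third is represented by 1 tested miRNA, measured by 1 probe. Its standard error of 0.15 is the common one of all 57 miRNAs, while its own non-MG arrays were far apart, at 46.3 and 66.7. With normexp, an alternative background correction, 50 was added to each spot and all probes were counted. hsa-miR-20b-5p then changed by -0.30 and hsa-miR-17-5p by -0.32. An added constant shrinks log2 changes of dim spots more than of bright ones, so these changes cannot be compared between miRNAs. In that setting the other tested members changed by -0.25 to -0.15. A difference between clusters was not tested because the members were selected on this contrast.

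The members' patterns over the 4 arrays were also compared with those of the other 52 human miRNAs past the minimum. After each miRNA's log2 signals were centred on their mean, the 3 nearest to the mean of the tested members were hsa-miR-886-3p, hsa-miR-29a-3p and hsa-miR-92a-3p, with root mean square differences of 0.0679, 0.0770 and 0.0854 over 4 arrays. The members are part of that mean, so their own distances are smaller by construction and cannot be compared directly with these. Among the members, hsa-miR-17-5p was nearest to that mean at 0.0604, and hsa-miR-20b-5p was farthest at 0.215. Between them lay hsa-miR-20a-5p at 0.0729, hsa-miR-93-5p at 0.0900 and hsa-miR-106b-5p at 0.160. The 3 nearest to hsa-miR-20b-5p outside the family were hsa-miR-886-3p at 0.153, hsa-miR-92a-3p at 0.169 and hsa-miR-31-5p at 0.206. hsa-miR-886-3p, an entry since reassigned to a vault RNA, had scaled signals of 67.6 and 84.5 in non-MG and of 53.5 and 50.8 in MG cells. In scaled signal, non-MG replicate 2 was the highest array for hsa-miR-886-3p, hsa-miR-29a-3p, hsa-miR-92a-3p and hsa-miR-31-5p, as for hsa-miR-17-5p, hsa-miR-20a-5p and hsa-miR-20b-5p.

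The scanner files also give a total per miRNA, which equalled the probe sum for the members except hsa-miR-18a-5p. For hsa-miR-18a-5p the unscaled probe sums were 31.7 and 26.1 in non-MG cells and 17.9 and 12.7 in MG cells. The totals were also 31.7 and 26.1 in non-MG cells, but 40.7 and 281 in MG cells. On MG replicate 2 the total was thus 22.2 times the probe sum, and with totals the order of the groups was turned. The table deposited for the series held the probe sums of the 6 members.

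**Figure D5:**
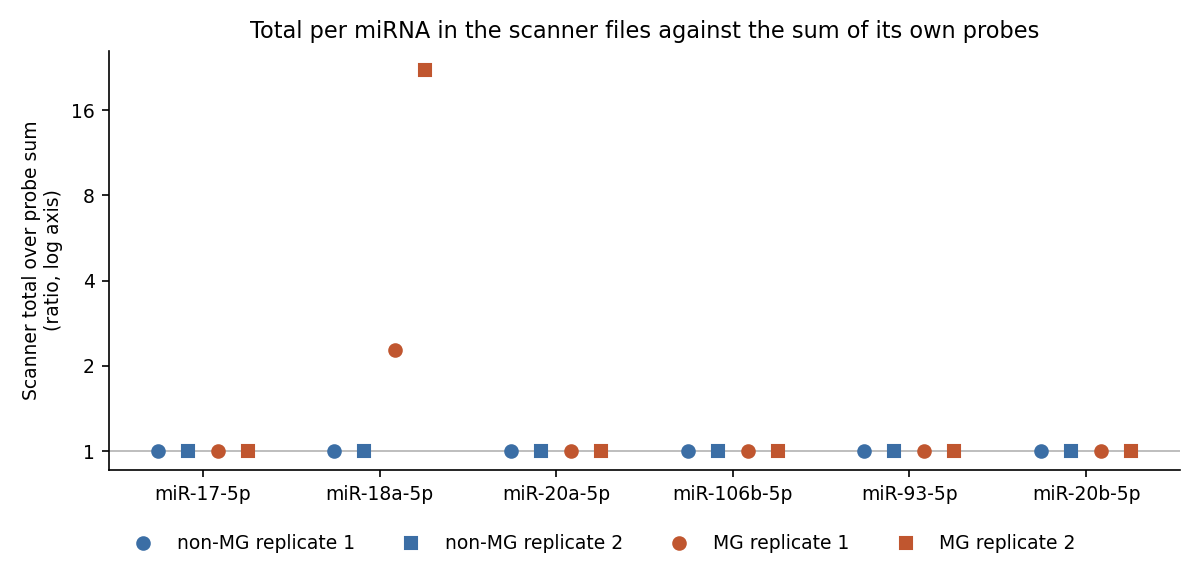
Ratio of the scanner software's total for a miRNA to the sum of its own probes, on a log axis, for each member and array. The ratio is 1 for 5 members on all 4 arrays, and it is 2.27 and 22.2 for miR-18a-5p on the MG arrays.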

How the data were processed

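Total RNA of MG and non-MG HCT116 cells (2 arrays each) had been labelled with Cy3 and hybridised to Agilent human miRNA arrays. Scanner output from Agilent Feature Extraction 10.7.1.1 was deposited by the authors. Its processed intensities for spots, probes and miRNAs have the local background removed and no normalization between arrays. Only the normexp setting started from the raw spot intensities and their separate background. The authors also deposited a table with 1 intensity per miRNA and array. The sum of a miRNA's probes above 3 times their error equalled that table within 0.05% for all 142 detected miRNAs, 106 of them under another name, and was used as its signal. Other columns used, such as names, positions and flags of spots, were read as deposited by the authors.

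A common 75th percentile over the 116 miRNAs that every array detected was used for scaling, and log2 was taken with a floor of 1. The 57 detected human miRNAs that reached 50 before scaling on any array were compared with limma 3.58.1 in R 4.3.3 (two-sided, Benjamini-Hochberg adjustment at 0.05). The fit was run on simulated data with independent noise of 1 common spread, which checks the code and does not bear on the calls. Python 3.11.15 with pandas 2.3.3 was used to read the files. Sequences and coordinates were taken from RefSeq tables of GRCh38.p14, and the scanner files hold no coordinates. The number of arrays limits the precision.

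The members, partners and markers, and the rule for named miRNAs, were chosen with earlier results of these data known. Named miRNAs were the members, their cluster partners, miRNAs on the array with a member's seed, the 3 nearest in pattern to the family mean and to hsa-miR-20b-5p, and the markers. Alternatives covered the signal per miRNA, background, scaling, floor, minimum, test, replicate block and each array left out. The median over spots and the spots of columns 37 to 82 were added after seeing the data.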

Additional observations from a re-analysis of the deposited data

Results flagged for a closer look

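The scanner software's own total for each miRNA, a column the comparisons do not use, was above both non-MG arrays for hsa-miR-18a-5p on both MG arrays. It read 40.7 on MG replicate 1 and 281 on MG replicate 2, where the probes summed to 17.9 and 12.7. Over the 4 arrays the total exceeded the probe sum in 126 cases, and in 124 of these the excess equalled, within 0.1%, the total of the detected miRNA that precedes it in order of name. On MG replicate 2 the totals from hsa-miR-17-5p to hsa-miR-18b-5p formed such a chain of 7 steps, so that the total of hsa-miR-18a-5p holds the 184 of hsa-miR-17-5p and the probe sums of the miRNAs named between them. In the same way the total of hsa-miR-20b-5p was added to that of hsa-miR-21-3p on all 4 arrays, which raised the latter from 7.90 to 56.7 on non-MG replicate 1.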

How the results depend on the processing

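All 5 tested members stayed lower in MG in each alternative run that includes them, with log2 changes from -0.64 to -0.26 for hsa-miR-17-5p, -0.55 to -0.23 for hsa-miR-20a-5p, -1.05 to -0.30 for hsa-miR-20b-5p, -0.69 to -0.25 for hsa-miR-93-5p and -0.54 to -0.09 for hsa-miR-106b-5p. hsa-miR-18a-5p was turned to 1.67 by the scanner total, in which other miRNAs' signals are added to it. With that total 89 miRNAs were tested, 43 lay lower on both MG arrays, the members' median was -0.60, and limma called 0 members, 0 partners and 0 miRNAs, with 28 at an unadjusted p under 0.05. The median of the members was -0.25 with normexp, -0.31 with quantile normalization and -0.34 with the median over spots. Against 14 of 57 miRNAs called, limma called 9 with normexp, 6 without normalization and 9 of 44 with a minimum of 100. It called 1 member without normalization and 0 partners after quantile normalization. A minimum of 20 left 37 of 91 miRNAs lower on both MG arrays and no minimum 46 of 115. With a minimum of 100, 3 of the 3 remaining members lay lower on both MG arrays, as did 17 of the 44 miRNAs, and with median scaling or no normalization 4 of 5 members did, against 19 and 22 of the 57. The unpaired t-test that the study's legends name for assays other than the arrays was run with the same adjustment. On 2 arrays per group it called 0 members, 0 partners and 0 miRNAs, with 7 at an unadjusted p under 0.05. The cause of these moves was not tested.

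Leaving out 1 array at a time, where the lone array of a group is assumed to vary like the others, limma called 0 to 3 members, 0 to 1 partners and 3 to 11 miRNAs, with a members' median of -0.48 to -0.34. With the replicate block, limma called 8 miRNAs and 2 members, but the arrays share only a number, since 2 pairs and no label tie them, and the correlation of same-numbered deviations was 0.48. Scaling to the 75th percentile over all miRNAs was not run, because on every array that percentile falls on miRNAs that were not detected.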
